A study of Homo sapiens with 12 samples.

Results

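Translation efficiency, the ribosome footprint level of an mRNA relative to the abundance of that mRNA, was compared between HEK293T cells null for 4EHP (4EHP-null) and HEK293T cells that lack GIGYF1 and GIGYF2 (GIGYF1/2-null). The comparison covered 13257 of the 27011 genes in the count tables, which were the genes with enough counts in both assays. For each gene, the mRNA difference between the knockouts was subtracted from the footprint difference, on the log2 scale, so that a positive value is a higher translation efficiency in GIGYF1/2-null cells. HEK293T is a human embryonic kidney line, and the cells were untreated and plated on 15 cm dishes for 24 h. Wild-type (WT) cells and each knockout had 2 RNA-seq libraries of total RNA and 2 Ribo-seq libraries of ribosome-protected fragments, 12 in all. The series calls the libraries biological replicates. The labels do not say whether they came from separate cultures or whether a knockout is a clone or a pool. The p-values therefore measure spread among these libraries only, which may be technical.

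4EHP, encoded by EIF4E2, is a relative of the cap-binding initiation factor eIF4E that binds the mRNA cap without recruiting the rest of the initiation machinery. GIGYF1 and GIGYF2 are scaffold proteins that bind 4EHP and bring it to mRNAs through RNA-binding proteins, among them the ribosome collision sensor ZNF598, and they also contact the mRNA decay machinery. The complex is known both for repressing translation and for promoting decay of its targets. A change in mRNA level alone moves footprints and mRNA together and leaves translation efficiency where it was. A change in ribosome loading alone moves the footprints only.

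Total counts ran from 26143118 to 38175701 in RNA-seq and from 6536493 to 10816080 in Ribo-seq. Levels are CPM, a count scaled by TMM to the library's total over the tested genes. The library 4EHP-null RNA-seq replicate 2 stood apart from the other 5 RNA-seq libraries in RNAs that lack a poly(A) tail. RMRP, the RNA of RNase MRP, was at 186 CPM there and at 0.429 to 14.2 CPM in the other 5, and RPPH1, the RNA of RNase P, was at 204 CPM there and at 0.749 to 15.5 CPM in the others. Both were chosen after their values were seen. Among markers of other cell types, PTPRC, CD3E, HBB, APOB and COL1A2 were at 0 in every knockout RNA-seq library. The summed mRNA of 5 HEK293T markers was 708 to 837 CPM in 4EHP-null and 892 to 1136 CPM in GIGYF1/2-null. That of 4 fibroblast markers was 7.19 to 9.03 and 12.2 to 12.6 CPM, and that of 5 leukocyte markers 4.21 to 4.87 and 5.51 CPM. The part of these differences in the results below was not tested.

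Few genes passed the test for a translation efficiency difference between the knockouts. Of 13257 genes, 24 (0.181%) were called at an adjusted p under 0.05 by edgeR's quasi-likelihood test, 6 of them higher and 18 lower in GIGYF1/2-null cells. Without adjustment, 828 genes had p under 0.05, 393 higher and 435 lower. The same libraries gave 3525 called genes (26.6%) in mRNA and 1674 (12.6%) in footprints. The translation efficiency test carries the spread of both assays, so it detects a difference of a given size less readily than those tests. With the replicate number as a block it gave 114 calls, and with a block pairing the assays 50. The median translation efficiency difference was 0.01 on the log2 scale, with quartiles at -0.14 and 0.17 and a median standard error of 0.21 for a gene. TMM scaling within each assay sets the typical difference near 0. A shift in translation shared by most genes would therefore not be seen here. A difference of at least 2-fold was fitted for 377 genes (2.84%), so most of the genes past that size did not pass the test. The number of calls was 13 without 4EHP-null RNA-seq replicate 2, 11 and 9 without GIGYF1/2-null RNA-seq replicates 1 and 2, 7 without 4EHP-null Ribo-seq replicate 1, and 40 without 4EHP-null RNA-seq replicate 1.

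Across genes, mRNA and footprint differences moved together, with a Pearson correlation of 0.70 and a Spearman correlation of 0.70 over the 13257 genes, which share 8 knockout libraries and are not independent replicates. Of the 227 genes with a called mRNA difference of at least 2-fold and footprints of at least 5 CPM, 217 had a footprint difference of the same sign, 169 had footprints called the same way, and 16 were called in translation efficiency. Among the 97 with higher mRNA in GIGYF1/2-null cells, the median log2 difference was 1.34 in mRNA and 0.94 in footprints. Among the 130 with lower mRNA, it was -1.28 in mRNA and -1.24 in footprints. These medians share the mRNA values by which the genes were picked, and they are a description.

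**Figure D1:**
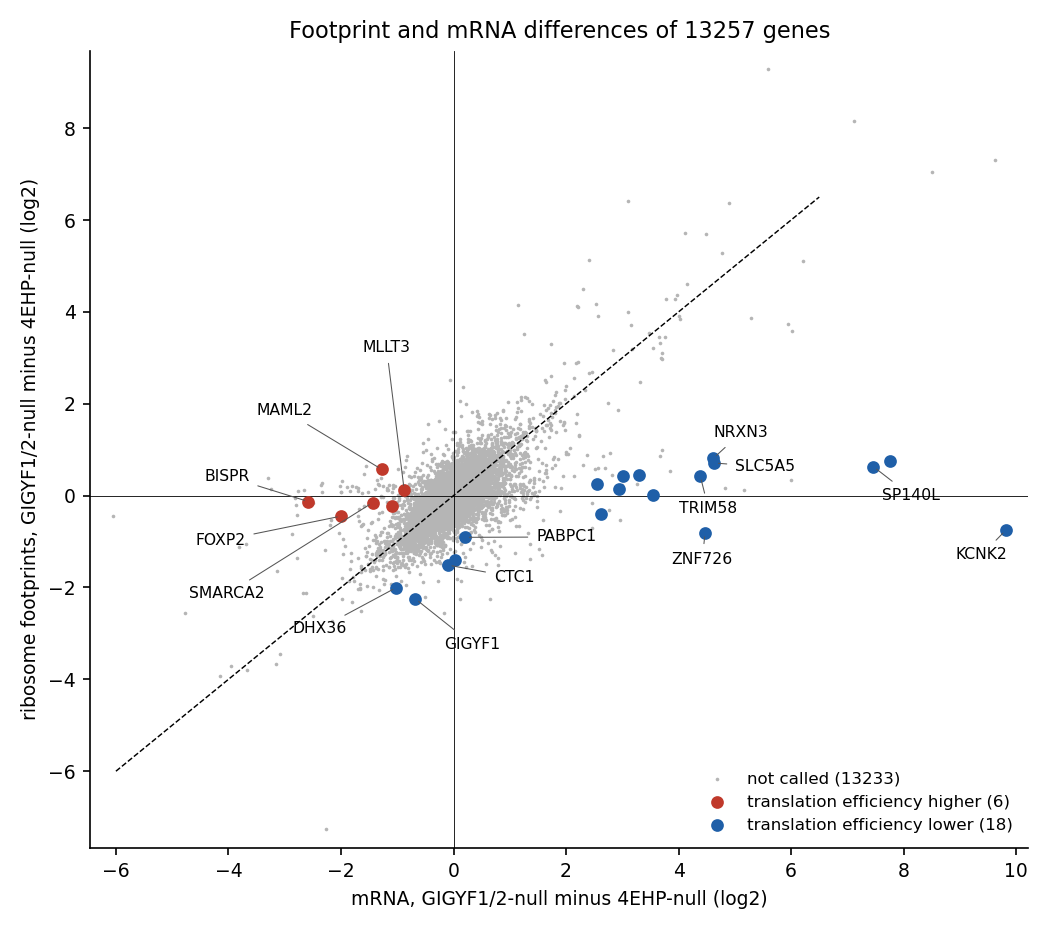
Footprint difference (vertical, log2) against mRNA difference (horizontal, log2), GIGYF1/2-null minus 4EHP-null, for each of 13257 genes. The dashed line marks equal differences. The 24 called genes lie off the line, most of them near 0 on the footprint axis, and KCNK2 and SP140L are placed by fits to 0 mRNA counts in 4EHP-null cells.

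The targeted genes were read out in both assays. EIF4E2 mRNA was at 51.1 and 46.7 CPM in the 4EHP-null libraries, 132 and 139 CPM in the GIGYF1/2-null libraries and 124 CPM in both WT libraries. Its footprints were at 18.7 and 13.4 CPM in 4EHP-null, 44.7 and 39.8 CPM in GIGYF1/2-null, and 41.8 and 36.6 CPM in WT. The 4EHP-null libraries were thus lowest in both assays, without overlap. Because mRNA and footprints differed alike (log2 1.47 and 1.40), the translation efficiency difference of EIF4E2 was -0.07 ± 0.19 (SE, adjusted p = 0.991).

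GIGYF1 passed the test for translation efficiency. Its mRNA was at 38.9 and 39.3 CPM in 4EHP-null, 22.6 and 26.3 CPM in GIGYF1/2-null and 41.3 and 40.9 CPM in WT libraries. The footprints of the gene were at 10.5 and 13.6 CPM in 4EHP-null, 1.88 and 3.05 CPM in GIGYF1/2-null and 9.54 and 7.34 CPM in WT libraries. The knockouts did not overlap in either assay, and the footprint gap was the larger, for a translation efficiency difference of -1.57 ± 0.29 (SE, adjusted p = 0.0386). The call was kept in 1 of 8 fits that each left out 1 knockout library, the fit without GIGYF1/2-null Ribo-seq replicate 2, and the adjusted p ranged from 0.0412 to 0.215 over the 8.

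GIGYF2, the other targeted scaffold, was not called. Its mRNA was at 68.1 and 68.8 CPM in 4EHP-null, 97.4 and 82.8 CPM in GIGYF1/2-null and 81.6 and 66.4 CPM in WT libraries, and the mRNA difference between the knockouts passed the test (log2 0.40, adjusted p = 0.0186). Its footprints were at 122 and 95.6 CPM in 4EHP-null, 90.3 and 57.5 CPM in GIGYF1/2-null and 99.7 and 69.8 CPM in WT libraries, so the knockouts did not overlap and WT overlapped both. The translation efficiency difference was -0.96 ± 0.28 (SE, edgeR adjusted p = 0.340). Reads of a disrupted transcript still count toward the gene, so a level above 0 does not measure the protein. ZNF598, the 4EHP paralogue eIF4E (EIF4E) and the proline-rich proteins PRRC2A, PRRC2B and PRRC2C had differences of 0.07, 0.09, 0.05, -0.26 and -0.33, all with adjusted p above 0.05.

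A small group had footprints that differed well beyond any mRNA difference. CTC1, DHX36, PABPC1 and COX10-AS1 all had fewer footprints per mRNA in GIGYF1/2-null than in 4EHP-null cells. In CTC1, PABPC1 and COX10-AS1 the footprints were called and the mRNA was not. DHX36 was called lower in both assays, with the larger difference in footprints.

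CTC1 encodes a subunit of the CST complex, which completes the replication of telomere ends. CTC1 mRNA was at 20.9 and 19.6 CPM in 4EHP-null, 19.1 and 18.7 CPM in GIGYF1/2-null and 14.7 and 13.7 CPM in WT libraries. CTC1 footprints were at 443 and 327 CPM in 4EHP-null, 123 and 146 CPM in GIGYF1/2-null and 71.4 and 62.1 CPM in WT libraries. The footprint ranges of the 3 genotypes did not overlap, with 4EHP-null highest and WT lowest, while the knockouts' mRNA levels lay between 18.7 and 20.9 CPM. The footprint difference between the knockouts was -1.51 on the log2 scale (adjusted p = 0.000203), and the translation efficiency difference was -1.41 ± 0.19 (SE, adjusted p = 0.00562). It was called in all 8 fits that left out 1 knockout library, with adjusted p from 0.00207 to 0.0369.

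PABPC1 encodes the main cytoplasmic poly(A)-binding protein, which binds the tails of mRNAs and contacts both initiation and deadenylation factors. Its mRNA was at 822 and 779 CPM in 4EHP-null and 983 and 868 CPM in GIGYF1/2-null libraries, a difference that did not pass the test (adjusted p = 0.124). PABPC1 footprints were at 577 and 487 CPM in 4EHP-null, 322 and 245 CPM in GIGYF1/2-null and 429.7 and 393 CPM in WT libraries. The WT footprint levels lay between those of the knockouts, with no overlap of the groups. The footprint difference was -0.91 on the log2 scale (adjusted p = 0.00341) and the translation efficiency difference -1.12 ± 0.20 (SE, adjusted p = 0.0379). The call was kept in 2 of 8 fits, those without 4EHP-null Ribo-seq replicate 2 and without GIGYF1/2-null Ribo-seq replicate 1, with adjusted p from 0.0122 to 0.216 over the 8.

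DHX36 encodes a helicase that unwinds G-quadruplex structures in RNA and DNA. DHX36 mRNA was at 56.1 and 60.8 CPM in 4EHP-null and 30.5 and 27.3 CPM in GIGYF1/2-null libraries. DHX36 footprints were at 132 and 114 CPM in 4EHP-null and 33.3 and 28.4 CPM in GIGYF1/2-null libraries. Neither assay overlapped between the knockouts, and the log2 difference was -1.02 in mRNA and -2.001 in footprints, for a translation efficiency difference of -0.99 ± 0.17 (SE, adjusted p = 0.0330). WT levels (53.7 and 47.8 CPM of mRNA, 109 and 101 CPM of footprints) were near those of 4EHP-null cells. The call was kept in 2 of 8 fits, again those without 4EHP-null Ribo-seq replicate 2 and without GIGYF1/2-null Ribo-seq replicate 1 (adjusted p 0.0232 to 0.202).

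COX10-AS1, a non-coding row, was at 8.27 and 8.38 CPM of mRNA in 4EHP-null and 8.20 and 8.79 CPM in GIGYF1/2-null libraries. Its footprint counts were 9.60 and 8.76 CPM against 3.49 and 3.44 CPM, without overlap, for a difference of -1.43 ± 0.26 (SE, adjusted p = 0.0377). The call was lost in each of the 8 fits that left out 1 knockout library (adjusted p 0.0693 to 0.216). It is antisense to COX10, no source used here states the strand setting of the counts, and in a non-coding row the value is a ratio of counts and no measure of protein synthesis.

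**Figure D2:**
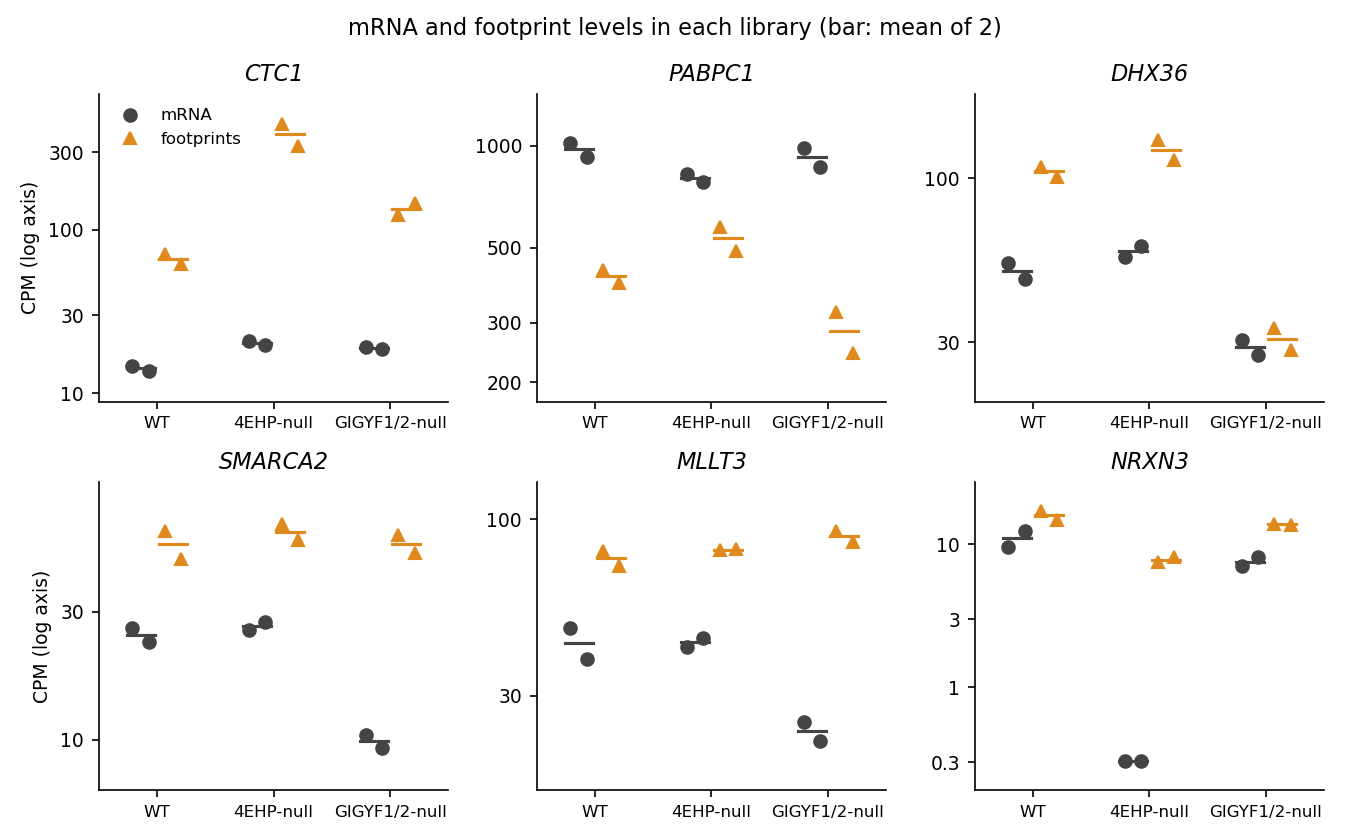
Level of mRNA (circles) and ribosome footprints (triangles) of 6 called genes in each of the 2 libraries per genotype, in CPM on a log axis, with a bar at the mean of each pair. Between the knockouts, CTC1 and PABPC1 were called in footprints and not in mRNA, and DHX36 in both. SMARCA2, MLLT3 and NRXN3 differ mainly in mRNA.

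In most of the called genes, 16 of 24, the mRNA was called and the footprints were not. Of these 16, 10 had more mRNA and a lower translation efficiency in GIGYF1/2-null cells, and 6 had less mRNA and a higher translation efficiency. In NRXN3 the footprints were called as well, the same way as the mRNA but by less. In ZNF726 they were called the opposite way. The mRNA of many of these genes was scarce: 13 of the 24 called genes averaged under 1 CPM of mRNA in a knockout, out of 734 such genes (1.77%), against 11 of the other 12523 (0.0878%). The mRNA level that splits the genes is part of the contrast, so these shares are a description.

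NRXN3, a neurexin of presynaptic contacts, was at 0.306 and 0.305 CPM of mRNA in 4EHP-null and 7.02 and 8.17 CPM in GIGYF1/2-null libraries. Its footprints were at 7.51 and 8.16 CPM against 13.8 CPM in both GIGYF1/2-null libraries. The knockouts did not overlap in either assay, and the translation efficiency difference was -3.80 ± 0.35 (SE, adjusted p = 0.000114). SLC5A5, the sodium and iodide symporter of the thyroid, was at 0.551 and 0.343 CPM of mRNA against 10.7 and 12.2 CPM. Its footprints, at 6.64 and 8.46 CPM against 10.3 and 14.3 CPM, were not called, and the translation efficiency difference was -3.92 ± 0.40 (adjusted p = 0.000313). TRIM58, a ubiquitin ligase of the red cell lineage, was at 0.949 and 0.343 CPM of mRNA against 15.8 and 12.5 CPM, with footprints of 4.71 and 5.74 CPM against 6.84 and 7.28 CPM and a difference of -3.95 ± 0.44 (adjusted p = 0.000782). For each of these 3 genes the call held in all 8 fits that left out 1 library, with adjusted p of at most 0.0304.

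GHR, the growth hormone receptor, had 0.521 and 0.685 CPM of mRNA in 4EHP-null and 4.53 and 4.71 CPM in GIGYF1/2-null libraries. Its footprints overlapped between the knockouts, at 6.29 and 6.04 CPM and at 7.78 and 6.00 CPM. The translation efficiency difference was -2.79 ± 0.40 (SE, adjusted p = 0.00781), and it was lost only without 4EHP-null Ribo-seq replicate 1 (adjusted p = 0.0628) among the 8 fits. LINC01419, a non-coding row, differed in the same way (-2.83 ± 0.39, adjusted p = 0.00562) and was lost only without 4EHP-null Ribo-seq replicate 2 (adjusted p = 0.0873).

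For 3 genes the 4EHP-null mRNA libraries held 0 or 1 count, so the fitted difference is no measure of size. KCNK2, a background potassium channel, had 0 mRNA counts in both 4EHP-null libraries and 230 in the GIGYF1/2-null libraries together. Set against a floor of 3 counts per library, its mRNA was at least 34.5-fold higher in GIGYF1/2-null cells. Its footprints overlapped, at 5.59 and 2.57 CPM in 4EHP-null and 2.01 and 2.66 CPM in GIGYF1/2-null libraries, and the call (adjusted p = 0.00550) was lost without 4EHP-null Ribo-seq replicate 1 (adjusted p = 0.0628). SP140L, a nuclear body protein, had 0 and 45 mRNA counts, which is at least 6.69-fold higher in GIGYF1/2-null cells, and footprints that were not called. ZNF726, a zinc finger protein, had 1 and 30 mRNA counts, a ratio of 27.1 with a 95% counting interval of 4.51 to 1107. Its footprints, at 14.1 and 10.7 CPM in 4EHP-null and 6.58 and 7.48 CPM in GIGYF1/2-null libraries, were called lower (adjusted p = 0.0267). Intervals and floors cover counting error only.

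The other called genes with more mRNA and uncalled footprints were ADGRE2, an adhesion receptor of myeloid cells (-3.52 ± 0.59), C4orf19 (-3.01 ± 0.52), the guanine nucleotide exchange factor PLEKHG4B (-2.59 ± 0.46) and GLUD2 (-2.29 ± 0.42). All 4 averaged under 1 CPM of mRNA in 4EHP-null cells. GLUD2, a mitochondrial glutamate dehydrogenase, is a near copy of GLUD1, with footprints of 82.9 to 103 CPM beside 0.228 to 1.91 CPM of mRNA in the knockouts. No source used here states how reads of near copies were divided, so its value is uncertain. Leaving out 1 library kept ZNF726 and ADGRE2 in 4 of 8 fits, SP140L and GLUD2 in 2 and C4orf19 and PLEKHG4B in 1. The highest adjusted p over those fits was 0.0693 for ZNF726, 0.117 for ADGRE2, 0.140 for SP140L, 0.190 for GLUD2, 0.202 for C4orf19 and 0.223 for PLEKHG4B.

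**Figure D3:**
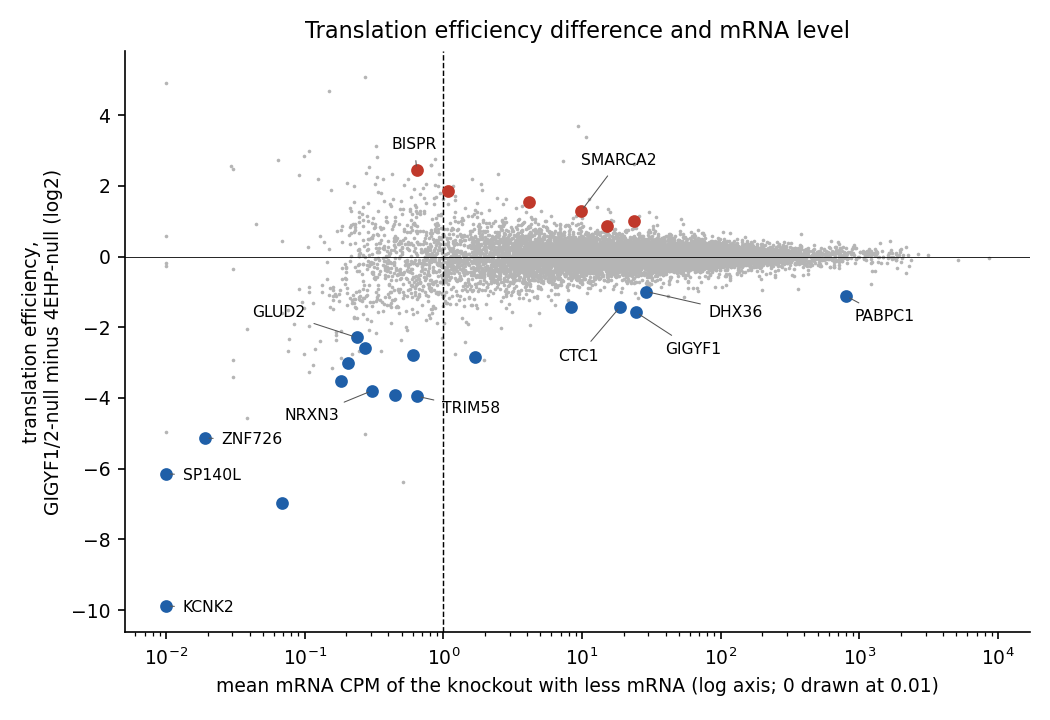
Translation efficiency difference (vertical, log2) against the mean mRNA level of the knockout with less mRNA (horizontal, CPM, log axis, with 0 drawn at 0.01), for 13257 genes. Red and blue points are the genes called higher and lower, and 13 of the 24 lie left of the dashed line at 1 CPM.

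The 6 genes called higher in GIGYF1/2-null cells all had less mRNA there and footprints that were not called. SMARCA2, an ATPase of the SWI/SNF chromatin remodelling complex, was at 25.6 and 27.5 CPM of mRNA in 4EHP-null, 10.4 and 9.26 CPM in GIGYF1/2-null and 25.999 and 23.1 CPM in WT libraries. Its footprints overlapped across genotypes, at 63.9 and 55.6 CPM, 58.0 and 49.8 CPM, and 60.1 and 47.1 CPM. The GIGYF1/2-null libraries were low in mRNA only, and the translation efficiency difference was 1.28 ± 0.19 (SE, adjusted p = 0.0136). The call was lost without 4EHP-null RNA-seq replicate 2, GIGYF1/2-null RNA-seq replicate 2 or 4EHP-null Ribo-seq replicate 2, with an adjusted p of up to 0.0900.

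MLLT3, a subunit of the super elongation complex of transcription, was at 41.9 and 44.4 CPM of mRNA in 4EHP-null and 25.04 and 21.96 CPM in GIGYF1/2-null libraries. Its footprints were at 81.2 and 81.6 CPM against 92.5 and 86.0 CPM, a gap that did not pass the test, and the translation efficiency difference was 1.01 ± 0.17 (SE, adjusted p = 0.0302). FOXP2, a transcription factor, was at 13.2 and 20.03 CPM of mRNA against 3.54 and 4.74 CPM, and differed by 1.55 ± 0.28 (adjusted p = 0.0400). DGKH, a diacylglycerol kinase, was at 29.9 and 34.7 CPM of mRNA against 14.6 and 15.5 CPM, and differed by 0.87 ± 0.16 (adjusted p = 0.0475). MAML2, a Notch coactivator, and BISPR, a non-coding row next to BST2, differed by 1.84 ± 0.32 and 2.45 ± 0.43. Among the 8 fits that left out 1 library, MLLT3, MAML2 and BISPR were kept in 2 and FOXP2 and DGKH in 1, with an adjusted p of up to 0.163, 0.196, 0.216, 0.252 and 0.252. For MLLT3 and MAML2 the kept fits were those without 4EHP-null RNA-seq replicate 1 and without GIGYF1/2-null Ribo-seq replicate 2, and for FOXP2 and DGKH the fit without 4EHP-null RNA-seq replicate 1.

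SMARCA2, MLLT3, FOXP2 and DGKH each lie among neighbouring genes whose mRNA was also lower in GIGYF1/2-null cells. Such runs of protein-coding genes were taken as stretches where the median mRNA difference over 25 neighbouring genes passed 0.3 on the log2 scale in either direction. The 758 genes in runs of lower mRNA had medians of -0.53 in mRNA, -0.47 in footprints and 0.03 in translation efficiency, with 6 genes called. These were the 4 genes above, called higher in translation efficiency, and GIGYF1 and TRIM58, called lower, of which TRIM58 had higher mRNA in GIGYF1/2-null cells, unlike its neighbours. The 638 genes in runs of higher mRNA had medians of 0.42, 0.42 and 0.02. The other 15 called protein-coding genes lay outside runs, among 10615 genes with a median translation efficiency difference of 0.02. Footprints thus differed with mRNA across these runs. The footprints of the 4 genes above were not called, which does not show that they were unlike those of their neighbours. These 4 were picked by a translation efficiency call, so a footprint difference smaller than the mRNA difference follows from that choice. The runs were found from the same mRNA values, so their mRNA medians are a description.

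Each knockout was also set beside WT in the same fit. These comparisons share the WT libraries, and their difference is the contrast above. Against WT, 13 genes (0.0981%) were called in 4EHP-null and 6 (0.0453%) in GIGYF1/2-null cells. Among the 24 genes called between the knockouts, NRXN3, CTC1, LINC01419 and ZNF726 were called in 4EHP-null cells against WT, and SMARCA2 and MLLT3 in GIGYF1/2-null cells. CTC1 was 2.02 above WT in 4EHP-null cells (adjusted p = 0.000213) and 0.61 above WT in GIGYF1/2-null cells (adjusted p = 0.809). PABPC1 was 0.65 above WT in 4EHP-null and 0.46 below in GIGYF1/2-null cells, neither called. SMARCA2 and MLLT3 were 0.05 and 0.08 above WT in 4EHP-null cells, not called, and 1.33 and 1.09 above it in GIGYF1/2-null cells (adjusted p = 0.0393 and 0.0396). DHX36 was 0.03 above WT in 4EHP-null cells and 0.96 below it in GIGYF1/2-null cells, the latter with an adjusted p of 0.0672. In the authors' deposited table for GIGYF1/2-null cells against WT, DHX36 has a log2 translation efficiency change of -0.94 with an adjusted p of 0.00181. In that for 4EHP-null cells PABPC1 has 0.68 with an adjusted p of 0.00709. Other genes named here pass 0.05 there too, among them AMD1 (-0.81), CEBPA (-1.08), NANOS1 (2.45) and ATP5G3 (0.91) in 4EHP-null cells. ORAI2 (1.02) passes in GIGYF1/2-null cells. SLC5A5 passes in both, at 2.23 in 4EHP-null and -1.75 in GIGYF1/2-null cells.

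Beyond the 24, the genes of next smallest p with at least 5 CPM in both assays did not pass the test. NANOS1, an RNA-binding repressor of translation, was at -1.93 ± 0.38 (adjusted p = 0.0567) and PARP4, a vault-associated ADP-ribosyltransferase, at -0.88 ± 0.19 (adjusted p = 0.103). On the positive side, BCL6B, CEBPG, USF3, ORAI2, MLXIP and THAP11 lay between 0.64 and 0.75, with adjusted p from 0.0975 to 0.167. THAP11, a transcription factor, had footprints of 30.04 and 33.2 CPM in 4EHP-null and 53.7 and 57.2 CPM in GIGYF1/2-null libraries, called higher in footprints (adjusted p = 0.00332), with mRNA of 53.1 to 63.8 CPM in the 4 libraries. Of these 8 genes, NANOS1 passed without 4EHP-null Ribo-seq replicate 2 (adjusted p = 0.0458), and the other 7 passed in none of the 8 fits. NANOS1 also passed by DESeq2 (adjusted p = 0.00472) and by edgeR with no low-count filter (adjusted p = 0.0239).

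Genes of the translation and decay machinery and of known translationally controlled groups were described as 31 lists. The 902 distinct genes of these lists that were tested held 2 called genes (0.222%, beside 0.181% of all genes), GIGYF1 and PABPC1. GIGYF1 is itself a targeted gene of the GIGYF1/2-null cells. Leaving aside histones and leukocyte markers, the medians of the other 29 lists lay between -0.14 and 0.18, beside 0.01 for all genes. Among the 27 lists with no call by edgeR, DESeq2 called 1 gene, ATP5G3 of oxidative phosphorylation, and limma-voom none.

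In the complex and its partners, 1 of 14 measured members was called (the targeted gene GIGYF1, lower), and the median was -0.06. Of 39 deadenylation, decapping and 5′ decay factors, PABPC1 was called and the median was -0.03. CNOT2, a scaffold subunit of the CCR4-NOT deadenylase, was at -0.37 and LSM14B, a P-body protein, at 0.40, neither called (adjusted p = 0.618 and 0.630). Of 31 ribosome collision and quality control genes none was called by edgeR, and the median was -0.07. In this list 5 genes had an unadjusted p under 0.05, all below 0, beside 828 of all 13257 genes, 435 of them below 0. The 5 were ASCC1 (-0.50) and ASCC3 (-0.43) of the complex that splits collided ribosomes, the ubiquitin ligases CNOT4 (-0.49) and LTN1 (-0.41), and NEMF (-0.54), which marks stalled nascent chains. ASCC3, LTN1 and NEMF were named after their values were seen. Of 50 cap-binding and initiation factors, PABPC1 was called and the median was -0.05, and of 16 elongation and termination factors none was called, with 0 at an unadjusted p under 0.05.

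Of 20 mRNAs under control of upstream open reading frames, none was called by edgeR, and 4 had an unadjusted p under 0.05, all above 0. Over all 13257 genes, 828 had an unadjusted p under 0.05, 393 of them above 0. CEBPA, a transcription factor of myeloid and liver cells, had footprints of 4.54 and 5.29 CPM in 4EHP-null, 8.19 and 8.36 CPM in GIGYF1/2-null and 8.75 and 8.37 CPM in WT libraries. Its mRNA was at 24.96 to 27.6 CPM in the 4 knockout libraries, so the 4EHP-null libraries were low in footprints only. The footprints were called higher in GIGYF1/2-null cells (adjusted p = 0.0477), but the translation efficiency difference of 0.66 ± 0.22 had an adjusted p of 0.535. SLC35A4, a well-known example of upstream control, had footprints of 29.3 CPM in both 4EHP-null libraries and 40.9 and 37.2 CPM in GIGYF1/2-null libraries, with mRNA of 138 to 147 CPM and a difference of 0.42 ± 0.14 (adjusted p = 0.593). AMD1, the polyamine enzyme S-adenosylmethionine decarboxylase, was at 0.63 and CEBPB, named after its value was seen, at 0.53, with adjusted p of 0.652 and 0.618. The list median was 0.05.

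Of 25 ATF4 targets, none was called by edgeR in translation efficiency, while 15 were called lower in mRNA and 8 lower in footprints. Over all 13257 genes, 14.2% were called lower in mRNA and 7.64% lower in footprints. The median difference of the 25 ATF4 targets was -0.36 in mRNA, -0.29 in footprints and -0.01 in translation efficiency. CEBPG, a partner of ATF4, was the member with the smallest p (0.70 ± 0.15, adjusted p = 0.0975). Of 38 G1/S and DNA replication genes, 17 were called lower in mRNA, 15 lower in footprints and none in translation efficiency, with POLA1, the catalytic subunit of the primase-linked polymerase, at -0.64 (adjusted p = 0.340). Of 22 aminoacyl-tRNA synthetases, 11 were called lower in mRNA, 9 lower in footprints and none in translation efficiency. The numbers with an unadjusted p under 0.05 in translation efficiency were 1, 2 and 0.

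The unfolded protein response and endoplasmic reticulum folding genes had 21 of 24 members above 0 and none called. Their median was 0.11, beside 0.01 for all genes, so the larger part of all genes was above 0 too. Members share libraries and are not independent, so the count above 0 is a description. CRELD2 (0.55, adjusted p = 0.468) and SDF2L1 (0.38, adjusted p = 0.717), both secretory pathway chaperone factors, had the smallest p. Nuclear-encoded oxidative phosphorylation genes had a median of -0.02 over 76 members, with 0 called and 2 at an unadjusted p under 0.05. One of them, ATP5G3, a subunit c gene of ATP synthase, had footprints of 3033 and 2063 CPM in 4EHP-null and 1874 and 1465 CPM in GIGYF1/2-null libraries and a difference of -0.93 ± 0.24 (adjusted p = 0.233). The immediate early and AU-rich mRNAs, which include targets of TTP-type proteins that bind the complex, had a median of 0.12 over 32 members. KLF4 was the highest of them (1.43 ± 0.44, adjusted p = 0.434).

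**Figure D4:**
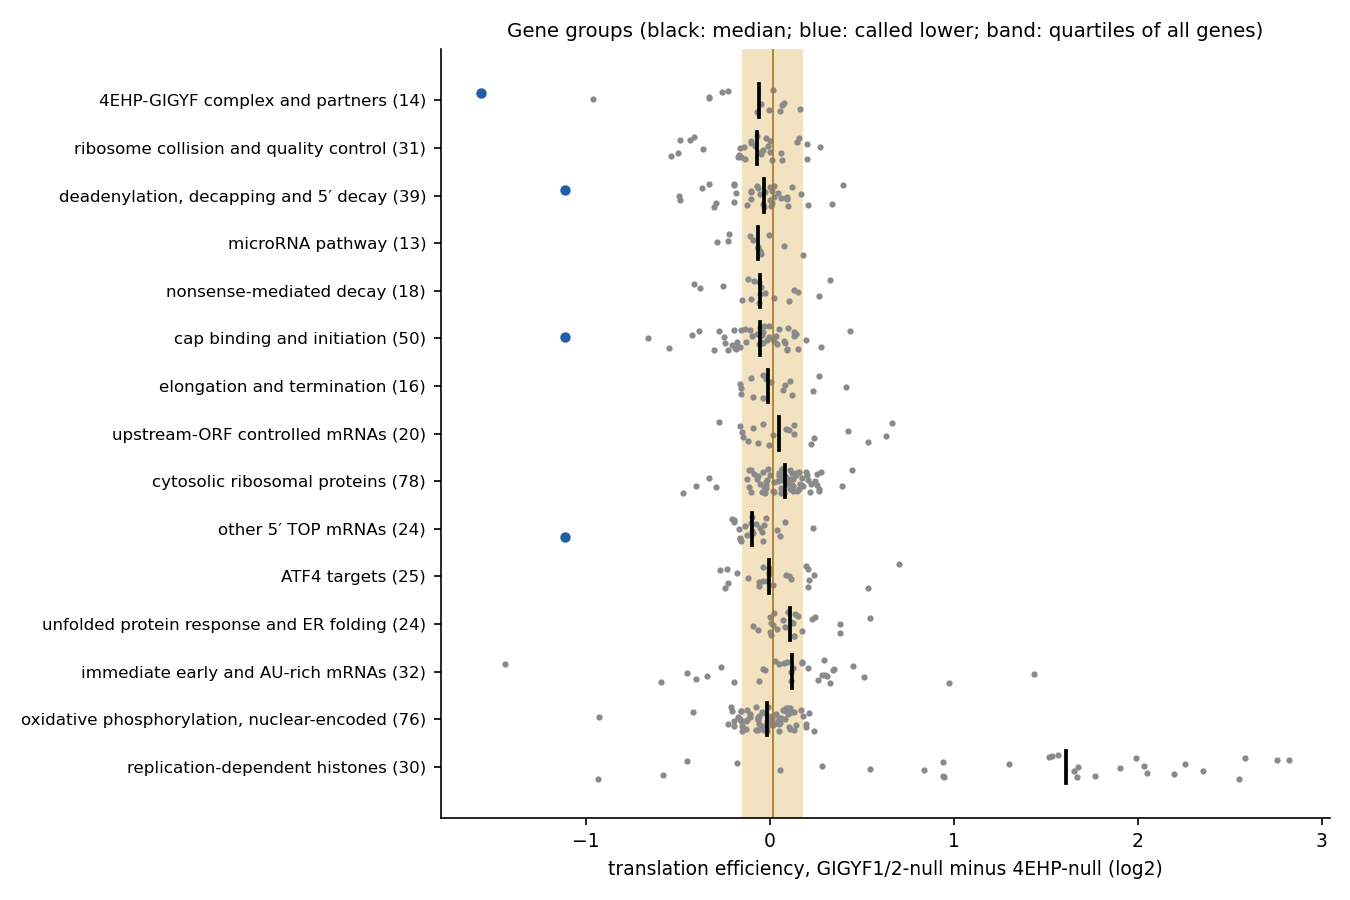
Translation efficiency difference (log2, GIGYF1/2-null minus 4EHP-null) of each measured member of 15 gene lists, with the list median as a black bar, called genes in blue and the number of measured members in brackets. The band spans the quartiles of all 13257 genes, -0.14 to 0.17, and every list median but that of the histones lies within it.

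Ribosomal protein mRNAs and other 5′ TOP mRNAs begin with a cytosine and a run of pyrimidines, which is the site through which mTOR signalling controls their translation. They are shown because PABPC1, the called gene with the most mRNA, belongs to this class by its gene list. No start sequence was available for PABPC1, so whether its own start has the tract was not read. The bases from the annotated transcript start were read from RefSeq (GRCh38.p14) on the sense strand, at that fixed position, for a C followed by at least 4 bases that are each C or T. The first 20 bases of 5 members are shown, with the start and tract in capitals. Only members with the tract were open to this choice, which was made for their roles with values known. They are the small subunit protein RPS6, the ubiquitin fusion RPS27A, the stalk-base protein RPL12, the elongation factor EEF2 and the histone chaperone NAP1L1.
RPS6: CTCTTTTCCgtggcgcctcg
RPS27A: CTTTTCgatccgccatctgc
RPL12: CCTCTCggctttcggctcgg
EEF2: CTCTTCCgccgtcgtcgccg
NAP1L1: CTTTTTTagcgccatctgct
These lie at chr9:19380217-19380236 (minus strand), chr2:55232688-55232707 (plus), chr9:127451387-127451406 (minus), chr19:3985444-3985463 (minus) and chr12:76084666-76084685 (minus).

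None of these 5 mRNAs was called. Their translation efficiency differences were 0.12 ± 0.16 for RPS6, 0.11 ± 0.17 for RPS27A, -0.40 ± 0.18 for RPL12, -0.16 ± 0.20 for EEF2 and -0.08 ± 0.18 for NAP1L1 (SE), beside -1.12 for PABPC1. The 78 measured ribosomal protein genes had a median of 0.08, with 55 above 0, none called by edgeR and 2 at an unadjusted p under 0.05, RPSA (-0.47) and RPL12. RPL41 (0.44) and RPL32 (0.39) were at the other end, with adjusted p of 0.893 and 0.890. The other 24 TOP mRNAs had a median of -0.10, with 4 above 0 and PABPC1 called. Members of a list share libraries, so these counts above 0 are a description. A RefSeq start was available for 17 of the other TOP mRNAs, not for PABPC1, and 12 had the tract. Among 63 ribosomal protein genes with a RefSeq start, 47 had it. A tract of this kind was present at the start of 724 of the 9861 tested genes with a RefSeq start (7.34%) and in 4.07% of all 35116 starts in the table. The 724 genes had a median difference of 0.01 with quartiles at -0.13 and 0.16, beside 0.02 for the 9137 without it, and 1 of them was called (GLUD2). A match is a description of the annotated start and does not show which start these cells used.

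The 30 measured replication-dependent histone genes had the only list median far from 0, at 1.61, with 13 members above and 2 below 0 at an unadjusted p under 0.05 and none called by edgeR. Their median log2 difference was -1.35 in mRNA and 0.19 in footprints. Most of their mRNAs lack a poly(A) tail and were scarce in RNA-seq beside their footprints. HIST1H4E mRNA was at 0.276 and 4.49 CPM in 4EHP-null and 0.191 and 0.474 CPM in GIGYF1/2-null libraries, with footprints of 549.6 and 690.5 CPM against 654 and 680.2 CPM. The 4EHP-null libraries differed from each other: the summed mRNA of the 30 genes was 97.7 CPM in replicate 1 and 220.0 CPM in replicate 2, the library that was also high in RMRP and RPPH1. The sum was 186 and 199.6 CPM in the GIGYF1/2-null and 122 and 123 CPM in the WT libraries. A sum weighs the members with the most mRNA, so it need not follow the list median. Without 4EHP-null RNA-seq replicate 2 the list median was -0.70, 1 member was called lower, and HIST1H4E and HIST1H2AH, which were at 2.82 and 2.58, were at -0.18 and -0.22. Without 4EHP-null RNA-seq replicate 1 the median was 2.55 and 19 members were called higher. HIST1H1C (-0.93) and HIST1H2BK (-0.58), more abundant as mRNA, were below 0 and not called. Near-identical histone copies share reads, so single members are uncertain.

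When genes were ranked by their footprint to mRNA ratio in WT cells, 20 of the 24 called genes fell in the highest quartile group, above a CPM ratio of 1.21, and 4 in the lowest. The highest group includes genes without WT mRNA counts, for which the ratio has no upper limit. Its translation efficiency differences also spread most, with a standard deviation of 0.65 beside 0.29 to 0.33 in the other groups by this ratio. The translation efficiency difference had a Spearman correlation of -0.21 with that ratio, -0.05 with gene model length and -0.07 with mean footprint level across genes, as a description over genes that share libraries. By gene model length, 13 of the 24 were in the longest quartile group. By mean footprint level in the knockout libraries, which the contrast also uses, 8, 7, 3 and 6 were in the quartile groups from lowest to highest, while the median standard error fell from 0.40 to 0.17. Of the 24, 21 were protein coding by RefSeq type.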

How the data were processed

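Gene counts of 6 RNA-seq and 6 Ribo-seq libraries were used as the authors deposited them, whole numbers per gene beside gene model widths. Bowtie2, TopHat2, edgeR and the hg19 build are named, with no version, per the submitters' processing notes. For the counting tool, annotation and strand, nothing is given in the sources used here. The log2 fold changes and adjusted p-values of the authors' deposited translation efficiency tables against WT were copied only where they are named as such, and linear fold ratios in the deposited tables were not used.

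Genes were kept where filterByExpr passed them in both assays (13257 of 27011), with TMM scaling done separately for RNA-seq and Ribo-seq. A fit of 12 libraries in 6 groups (3 genotypes by 2 assays) was made with edgeR 4.0.16 in R 4.3.3 (glmQLFit and glmQLFTest, two-sided). The tested contrast was the interaction of assay and genotype, with Benjamini-Hochberg adjusted p under 0.05 over all tested genes as the threshold. Footprints and mRNA were fitted within their own assays, and standard errors are the log2 difference over the root of F. WT libraries entered the filter, the TMM scaling and the estimate of spread, and have no weight in the contrast. A group with 0 counts was set to a floor of 3 counts per library. The method was tested on simulated data, with changes planted only in the footprints of genes with many footprint counts. No mRNA change was planted, so the simulation does not cover calls that come from mRNA. Alternatives were scaling, filters, leaving out each library, a replicate block, limma 3.58.1 (voom) and DESeq2 1.42.0.

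The named genes were the complex and its partners, the 10 genes of smallest p in each direction with at least 5 CPM in both assays (filled with uncalled genes), the 5 largest called differences in each direction above that level, up to 2 members per direction of each list, and up to 4 called genes of each class of mRNA and footprint calls. RMRP, RPPH1, GLUD1, CEBPB, ASCC3, LTN1, NEMF, RPS6, RPS27A and NAP1L1 fall outside this rule. The comparison, the rule and the lists were chosen with earlier results of these data known. RefSeq (GRCh38.p14) symbols or synonyms matched 13028 genes (98.3%), from which gene types, order along chromosomes and start sequences came. Some genes that were tested and counted are not reported here by name.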

Additional observations from a re-analysis of the deposited data

Results flagged for a closer look

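The 24 genes called between the knockouts are those whose translation efficiency change against WT differed between 4EHP-null and GIGYF1/2-null cells, by the test of the difference itself, since the WT libraries cancel in it. Of the 18 called lower, 18 had a 4EHP-null value above WT and 16 a GIGYF1/2-null value below it. All 6 called higher had a GIGYF1/2-null value above WT, and for SMARCA2 and MLLT3 the 4EHP-null value was slightly above it too. The genes were picked by the difference between these values, so the counts are largely set by that choice and are a description. Groups of 2 libraries are too small for a test of a library far from the others.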

How the results depend on the processing

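The direction of the 24 called genes was kept in every setting that tested them. NRXN3, SLC5A5, TRIM58 and CTC1 were called in each such setting. RLE and upper-quartile scaling each gave 24 calls and the lack of a low-count filter 30. A stricter filter gave 9 (2 higher, 7 lower), the knockout libraries alone 14 (3 and 11), a minimum fold of 1.2 gave 12 (1 and 11), limma-voom 17 (2 higher) and DESeq2 37 (29 lower). Leaving out 1 knockout library gave 7 to 40 calls, 0 to 31 higher and 6 to 24 lower. Footprint calls ranged from 461 to 1792 and mRNA calls from 1984 to 3617.

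Replicate numbers do not say what they pair, and deviations of same-numbered knockouts correlated at 0.21 (RNA-seq) and 0.19 (Ribo-seq), with 2 pairs. A replicate block by number gave 114 translation efficiency calls (34 higher, 80 lower), 3299 in footprints and 5013 in mRNA. A block pairing the assays, whose same-numbered libraries correlated at 0.03 and 0.19, gave 50 (9 higher, 41 lower). Both included the 24, and GIGYF2 was called under both (adjusted p = 0.000523 and 0.0214). Of the 27 lists with no call by edgeR over all libraries and no block, the block by number called 11 histones and 1 ATF4 target higher, and 1 gene lower in each of the chaperones, G1/S and oxidative phosphorylation lists, while the block pairing the assays called none. By number it also called NANOS1, PARP4, BCL6B, CEBPG, USF3, ORAI2, MLXIP and THAP11.

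Some differences changed sign, among them the large ones of HIST1H4E (2.82) and HIST1H2AH (2.58), and the others that did were nearer 0. The signs changed in fits that left out 1 library, and the cause was not tested. Over those fits EIF4E2 ranged from -0.30 to 0.18 (0.014 without GIGYF1/2-null Ribo-seq replicate 2), ZNF598 from -0.058 to 0.19, PRRC2A from -0.22 to 0.28 (-0.0063 without GIGYF1/2-null RNA-seq replicate 2), PRRC2B from -0.75 to 0.12 and PRRC2C from -0.87 to 0.052. RPS6 ranged from -0.015 to 0.28, RPS27A from -0.018 to 0.25, EEF2 from -0.40 to 0.029 and NAP1L1 from -0.22 to 0.083 (0.011 without GIGYF1/2-null RNA-seq replicate 1, 0.0022 without GIGYF1/2-null Ribo-seq replicate 2). HIST1H4E ranged from -0.18 to 3.82 and HIST1H2AH from -0.22 to 3.54, each lowest without 4EHP-null RNA-seq replicate 2. With 2 libraries a group and Ribo-seq totals of 6536493 to 10816080 counts, a gene's median standard error was 0.21 on the log2 scale, and 0.40 in the lowest quartile group of footprint levels, so small differences were not detectable at this depth.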
